A study of Mus musculus with 30 samples.

Results

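The genes described here encode potassium channel subunits and their close accessory proteins, taken as every symbol that starts with Kcn. There were 57 such symbols among 14997 genes in the table of laser-captured cells and 90 among 26005 genes in the table of cultured spheres. In all, 95 symbols occurred in either table and 52 in both, and 5 symbols of the captured table (Kcnd3os, Kcne3, Kcnmb2, Kcnmb4os1 and Kcnq1ot1) had no row in the sphere table. Kcnq1ot1, Kcnd3os and Kcnmb4os1 are RNAs without a channel protein and were counted apart, which leaves 54 channel genes in the captured table.

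The captured cells came from the mouse midbrain floor plate, carried Lmx1aCreERT2 (a tamoxifen-inducible Cre under the control of Lmx1a) with the R26TRAPC allele at every age, and were cut out by laser microdissection at E11 (n = 4), E13 (n = 5), E18 (n = 5) and P70 (n = 6). The spheres were grown in vitro from adult tissue and are labelled MB (n = 5) and FB (n = 5); the study's design names ependymal spheres from the midbrain aqueduct and neurospheres from the lateral ventricle, the labels give no genotype for them, and they do not spell out MB and FB. All libraries were made from polyadenylated RNA with Smart-seq2 and no molecular identifiers, and nothing in the labels says that replicates came from separate animals or cultures, so the p-values below measure the spread between these libraries, which may be technical. The captured values are reads scaled by transcript length and library size and are called units, and a gene is listed at an age only where its mean over that age was at least 1 unit. Sphere levels are CPM, counts scaled to the size of each library.

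Potassium channels set the resting potential of cells and end action potentials. Voltage-gated channels are built from pore-forming subunits and tuned by modifier and auxiliary subunits, calcium-activated channels link internal calcium to potassium efflux, and two-pore channels carry leak currents. Inward rectifiers of glia, in particular the Kcnj10 channel and the mixed channels it forms with Kcnj16, are known for giving astrocytes and ependymal cells their high potassium conductance and for taking up potassium released by active neurons. The genes were therefore also sorted into a glial type (Kcnj10, Kcnj16, Kcnk1 and Kcnk2), a neuronal type (39 genes) and a type known mainly from other cells (8 genes). Of the 54 captured channel genes, 4, 24 and 5 fell into these types. The others were given no type, among them Kcne1l, Kcnmb1, Kcnk7, Kcnip3 and Kcnab1.

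The sequences 250 bases upstream of the annotated RefSeq transcription start (GRCm38.p6) are shown for 4 genes that head the changes described below. They span a wide range of CG dinucleotides, which are printed in capitals; the median upstream stretch held 7 of them over 94 Kcn promoters and 6 over all 32851 promoters of the table. Kcnj10 has 1 annotated promoter, at chr1:172340960-172341209 on the plus strand, with 17 CG. The first of the 4 annotated promoters of Kcnj16, at chr11:110967783-110968032 on the plus strand, has 3. Kcnmb1, at chr11:33962763-33963012 on the plus strand, has 1, and Kcnn4, at chr7:24370013-24370262 on the plus strand, has 6.
Kcnj10: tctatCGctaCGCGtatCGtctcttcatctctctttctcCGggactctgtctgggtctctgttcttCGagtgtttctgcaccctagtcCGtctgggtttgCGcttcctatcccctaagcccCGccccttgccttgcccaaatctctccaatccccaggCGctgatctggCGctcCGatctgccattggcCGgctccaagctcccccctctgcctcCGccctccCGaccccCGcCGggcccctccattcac
Kcnj16: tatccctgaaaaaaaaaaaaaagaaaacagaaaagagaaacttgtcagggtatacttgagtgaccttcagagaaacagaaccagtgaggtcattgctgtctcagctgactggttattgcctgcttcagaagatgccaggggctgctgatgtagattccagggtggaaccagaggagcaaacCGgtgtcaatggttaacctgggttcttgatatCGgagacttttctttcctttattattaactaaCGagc
Kcnmb1: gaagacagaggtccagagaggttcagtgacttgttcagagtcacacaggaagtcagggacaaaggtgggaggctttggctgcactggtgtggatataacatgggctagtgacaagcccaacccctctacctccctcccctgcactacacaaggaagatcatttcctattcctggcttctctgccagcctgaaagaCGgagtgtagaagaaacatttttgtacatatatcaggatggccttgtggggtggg
Kcnn4: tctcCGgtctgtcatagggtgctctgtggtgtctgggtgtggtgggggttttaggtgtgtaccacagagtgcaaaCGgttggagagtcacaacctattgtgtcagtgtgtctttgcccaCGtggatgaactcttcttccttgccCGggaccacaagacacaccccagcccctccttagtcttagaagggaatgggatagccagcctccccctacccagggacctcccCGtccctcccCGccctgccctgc

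The genes of the glial rectifier pair thus differed in this count, Kcnj10 with 17 CG and the 4 Kcnj16 promoters with 3, 7, 4 and 1. The motifs searched on both strands in the 300 bases around the start were the full NFI palindrome, the Sox core AACAAT, the forkhead core GTAAACA, the RFX X-box (an inverted repeat) and the TATA box TATAAA. The NFI palindrome and the forkhead core matched none of 69 Kcn genes with a promoter in the table, against 0.0365% and 3.65% of all promoters. The Sox core matched 5 of the 69 genes, the TATA box 5 and the X-box 1, against 10.7%, 13.6% and 0.451% of all promoters. The Kcn counts are per gene, over all promoters of a gene, and the percentages are per promoter, so their units differ. Of the genes described in detail below, Kcnc2 and Kcnip4 had a Sox core, and Kcnj16 and Kcnab1 the letters TATAAA. The TATAAA of Kcnj16 lay in its promoter 3, 133 bases upstream of the start. That of Kcnab1 lay in its promoter 3, 20 bases downstream of the start and on the reverse strand. A match is only a match of letters. The X-box match lies in the first promoter of Kcnip3, at chr2:127522095-127522344 on the minus strand, which is shown because Kcnip3 had the highest Kcn level in both kinds of sphere; capitals mark the match, 34 bases upstream of the start.
Kcnip3: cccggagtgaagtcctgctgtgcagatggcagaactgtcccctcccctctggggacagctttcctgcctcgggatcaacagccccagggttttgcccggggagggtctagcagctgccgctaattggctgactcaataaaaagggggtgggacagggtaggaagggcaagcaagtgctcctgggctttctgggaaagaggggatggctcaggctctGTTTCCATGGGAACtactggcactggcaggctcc

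Regional genes were compared with the labels. The floor plate factor Foxa2 ranged from 76.8 to 113 units among the E11 libraries, 90.5 to 125 in E13, 26.4 to 41.5 in E18 and 8.31 to 21.1 in P70 libraries, and Lmx1a from 0.901 to 7.12 units in P70 and 20.7 to 24.2 units in E18 libraries. Of the other floor plate genes checked, Shh and Corin were not listed at P70, and En1 had 5.76 to 37.8 units there. In spheres none of these 5 genes exceeded 1.68 CPM in an MB library or 1.54 CPM in an FB library. The forebrain factor Six3 ranged from 0 to 0.289 CPM in MB spheres and from 13.5 to 17.6 CPM in FB spheres, and Six3 also reached 5.66 units in E11 libraries. Whole reads could be recovered from the units of 72.8% of captured genes; the recovered reads summed to 2213321 to 2654556 in E11 libraries, 1843303 to 2746489 in E13, 1775557 to 2235346 in E18 and 754230 to 1696241 in P70 libraries, where replicate 4 was the shallowest. Sphere libraries held 6327198 to 8422358 counts in MB and 6676389 to 9291311 in FB. Markers of several cell types moved with age. The summed neuron markers (10 of 10 listed at every age) ranged from 332 to 1021 units in E11, 1023 to 3517 in E13, 1184 to 3866 in E18 and 387 to 1056 in P70 libraries. The summed ependymal markers ranged from 17.1 to 47.0 units in E11, 40.8 to 81.1 in E13, 6315 to 9156 in E18 and 14610 to 22080 in P70 libraries, with Tmem212, Ccdc153 and Ak7 not listed at E11 and E13. In such bulk samples, fewer cells of a type and less RNA per cell cannot be told apart.

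The repertoire of listed channel genes widened between E13 and E18. Of the 57 Kcn symbols, 20 were listed in E11 cells (35.1%), 23 in E13 cells (40.4%), 44 in E18 cells (77.2%) and 45 in P70 cells (79.0%), while 81.5%, 82.6%, 89.0% and 88.6% of all captured genes were listed at these ages. Only 14 of the 57 were listed at all 4 ages, 14 at E18 and P70 alone, 9 at P70 alone and 6 at E18 alone. By role, listed voltage-gated pore genes numbered 3, 4, 13 and 12 from E11 to P70, and listed inward rectifiers 3, 3, 7 and 7. Listed two-pore genes numbered 3, 2, 7 and 6 and calcium- or sodium-activated genes 4, 5, 9 and 8. The modifier subunits, which have no current of their own and alter that of other voltage-gated pores, were listed at P70 alone (Kcng2, Kcns1 and Kcns3). Auxiliary subunits were already present early, with 6 listed at E11 and 7 at each later age.

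By type, 3, 2, 4 and 4 of the 4 glial-type genes and 7, 12, 19 and 21 of the 39 neuronal-type genes were listed from E11 to P70. The summed level of all channel genes had a median of 87.3, 230, 548 and 484 units over the libraries of E11, E13, E18 and P70. A gene not listed at an age added nothing to these sums, so they leave out more genes at E11 and E13. The glial type held a median of 15.1%, 17.6%, 25.7% and 31.1% of that sum, and the neuronal type 35.2%, 31.7%, 37.4% and 31.3%. The sum also holds genes of no assigned type, so these shares depend on their levels too. Kcne1l, 1 of them, averaged 126 units at E18 and 7.35 units at P70. The glial-type share was between 28.3 and 36.0% in every P70 library and between 12 and 16.7% in every E11 library. For Kcnj10 and Kcnj16 alone the median share was 7.08%, 5.1%, 17.5% and 26%, lower at E13 than at E11. Kcnk2, which is also known from neurons, averaged 5.69 units at E11 and 32.3 units at E13. The whole glial type averaged 12.8 and 43.9 units at these ages. The genes known mainly from other cells summed to a median of 6.53, 8.31, 18 and 73.7 units, and at P70 most of that sum was 1 gene, Kcnn4, at 64.7 units on average.

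**Figure D1:**
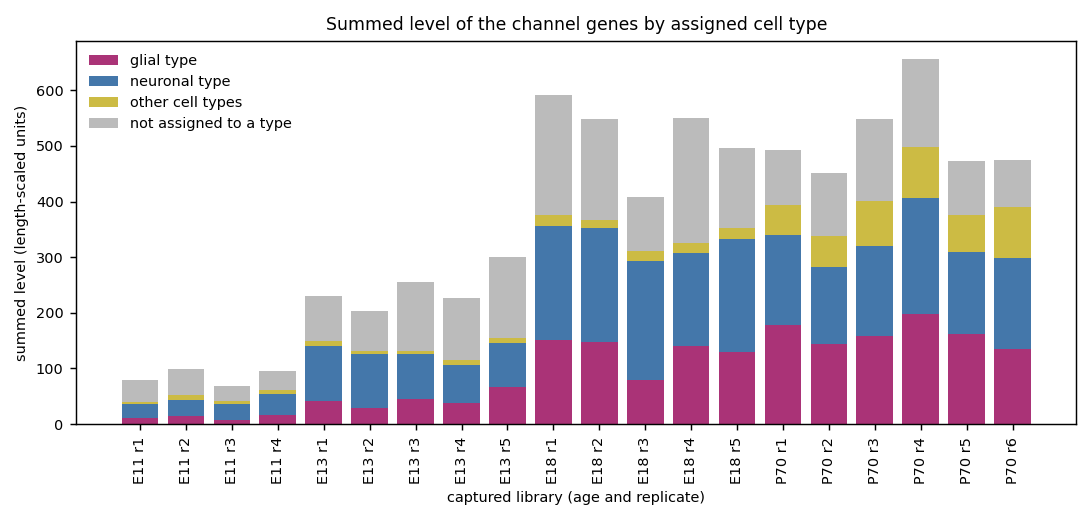
Summed level of the channel genes in each captured library (bar height, length-scaled units), divided by the cell type a gene is best known from. Genes of no assigned type form a part of their own. Library sums were 451 to 656 units at P70 and 68.3 to 99.0 units at E11, and the glial-type part had a median of 161 units at P70, against 13.4 units at E11. Genes not listed at an age add nothing to its bars.

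Kcnj10, the inward rectifier of glia, had a mean level that was higher at each later age, as did Kcnab2 and Kcnmb4 among the 14 symbols listed at all ages. Kcnj10 had 5.67, 7.42, 3.80 and 6.66 units at E11, 11.7, 7.03, 16.3, 6.51 and 16.5 units at E13, and 54.0, 49.4, 24.8, 41.7 and 44.0 units at E18. At P70 its lowest, median and highest values were 75.7, 98.8 and 119 units, on 1013 to 1689 recovered reads per library. E11 and E13 overlapped, whereas every E18 library lay above every E13 library and every P70 library above every E18 library. Ordered by mean level among the listed Kcn genes, Kcnj10 held ranks 5, 7, 3 and 1 from E11 to P70. Its partner Kcnj16 was not listed at E11 and E13, and had 30.2, 35.8 and 43.7 units as lowest, median and highest at P70, against 57.2, 56.6, 26.1, 51.1 and 42.6 units at E18, so that these ages overlapped. E18 replicate 3 had the lowest E18 value of both rectifiers and the highest summed neuron markers of that age (3866 units).

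The balance of the glial pair differed between P70 and E18. The log2 ratio of Kcnj10 to Kcnj16 (units + 1) was 1.42 ± 0.19 at P70 (SD, n = 6) and -0.12 ± 0.13 at E18 (SD, n = 5). The 6 P70 libraries ran from 1.21 to 1.65 and the 5 E18 libraries from -0.29 to 0.04, without overlap, and the difference of 1.54 had a two-sided exact permutation p of 0.004329, the smallest this design can give.

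The pattern of Kcnj10 over the 20 captured libraries was most like that of a few other genes. By Pearson correlation of log2(units + 1), given as a description with the 4 ages pooled, the nearest of 10721 genes listed at all ages were Slc6a9 (0.981), Ccdc30 (0.980), Itm2c (0.978), Dnajb2 (0.976) and Spag8 (0.975). Slc6a9 encodes a glycine transporter of glia. Of the other 13 Kcn symbols listed at all ages the nearest were Kcnab2 (0.866), Kcnmb4 (0.808), Kcnn2 (0.714), Kcnk2 (0.524) and Kcnj2 (0.414).

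In E13 cells against E11 cells, 9 of the 15 Kcn symbols listed at both ages rose and none fell (limma on log2(units + 1), Benjamini-Hochberg adjusted p below 0.05 over 11567 genes), where 20.9% of all genes tested were called, 9.44% higher and 11.5% lower. In 7 of the 15 the libraries of the ages did not overlap, against 28.4% of all genes. The median change of the 15 was 1.08 on the log2 scale, beside -0.04 over all genes. The 7 neuronal-type genes tested included 5 that rose and the 2 glial-type genes tested both rose. Of neuron markers 5 of 10 were higher and none lower over this step, and of astrocyte markers 4 of 6 were higher and 1 lower; their part in these results was not tested.

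An auxiliary subunit and a leak channel led the step. Kcne1l, a single-span subunit that restrains voltage-gated channels, had 60.9, 45.8, 85.0, 73.0 and 107 units at E13, against 10.1, 11.3, 6.84 and 12.4 units at E11, and rose by 2.72 ± 0.34 on the log2 scale (SE, adjusted p = 8.007e-06). Kcnk2, a two-pore leak channel of neurons and astrocytes that opens on membrane stretch, had 29.4, 22, 28.4, 31.8 and 50.0 units at E13, against 5.28, 6.24, 2.88 and 8.38 units at E11, and rose by 2.33 ± 0.25 (SE, adjusted p = 1.103e-06). Neither gene's libraries overlapped between the ages. In the GENCODE annotation of GRCm38, 12.2% of the exon bases of Kcnk2 are shared with an antisense RNA, which this unstranded protocol could not separate.

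Kcnip1 and Kcnip3, calcium-binding subunits that speed the traffic of transient A-type channels, and Kcnd3, a pore of that current, also rose. Kcnip1 had 23.1, 23.5, 19.0, 19.5 and 23.0 units at E13, against 3.17, 4.04, 2.87 and 6.35 units at E11 (log2 change 2.19 ± 0.45 SE, adjusted p = 0.001376). Kcnip3, whose protein also acts as a calcium-sensitive transcriptional repressor, had 10.9, 10.4, 15.3, 12 and 20.2 units at E13, against 1.91, 5.06, 2.64 and 5.81 units at E11 (1.65 ± 0.44, adjusted p = 0.009549). The A-type pore Kcnd3 had 5.64, 9.64, 7.20, 5.15 and 3.85 units at E13, against 1.29, 1.95, 1.90 and 1.60 units at E11 (1.40 ± 0.27, adjusted p = 0.0008895). All 3 were without overlap between ages.

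The small-conductance calcium-activated channel Kcnn2, which shapes the pause after a spike, had 5.07, 4.72, 4.42, 4.73 and 5.15 units at E13, against 0.366, 2.44, 1.40 and 2.03 units at E11 (1.26 ± 0.31, adjusted p = 0.005899). Kcnmb4, the neuronal accessory subunit of the large-conductance calcium-activated channel, averaged 23.6 ± 4.89 units at E13 (SD, n = 5) and 10.7 ± 2.35 units at E11 (SD, n = 4), a change of 1.07 ± 0.23 (SE, adjusted p = 0.002209 by limma); antisense RNAs share 10.7% and 20.9% of its exon bases. The smallest rise was that of Kcnj10 (0.81 ± 0.27, adjusted p = 0.03257), which overlapped between ages. It lost its call with a pseudocount of 5 and without any one of E11 replicates 1 and 3 and E13 replicates 1, 3 and 5 (adjusted p up to 0.1667 over all alternatives). Kcnab1, an auxiliary subunit with the highest Kcn level at E11, had 3.16, 10.7, 16.5, 22.1 and 15.0 units at E13, against 20.3, 18.3, 10.6 and 8.16 units at E11, and was not called.

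Listing changed as well over this step. Of 28 Kcn symbols listed at E13 or E11, 8 were listed at E13 alone (28.6%, against 6.24% of all genes) and 5 at E11 alone (17.9%, against 5.02%). The highest at E13 alone were Kcnh7, a pore related to the cardiac repolarising channel, at 6.06 ± 2.20 units (SD, n = 5) and the two-pore gene Kcnk10 at 3.34 ± 0.77 units. The highest at E11 alone were Kcnh2 at 4.28 ± 1.06 units (SD, n = 4) and the single-span subunit Kcne3 at 2.74 ± 2.21 units.

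In E18 cells against E13 cells, 8 of 21 Kcn symbols rose and 3 fell, where 47.4% of 11797 genes tested were called, 22.4% higher and 25.0% lower. In 8 of the 21 the ages did not overlap, against 37.8% of all genes. With values rescaled to a common median the split was 10 higher and 1 lower, and the 11 calls became 7 without E13 replicate 3 and 6 without E18 replicate 2. The neuronal type supplied 7 of the 8 rises among its 11 genes tested and 1 of the 3 falls, and Kcnj10 was the glial-type gene that rose, while Kcnk2 was not called (0.19 ± 0.24 on the log2 scale). This comparison shares its E13 libraries with the previous one. Neuron markers were called higher for 4 of 10 and lower for 1, and their summed range at E18 overlapped that at E13. Astrocyte markers were higher for 5 of 7 and lower for none, with summed levels of 918 to 1551 units at E18 and 241 to 378 units at E13, and ependymal markers were higher for 5 of 5 at a median log2 change of 6.30; their part in the Kcnj10 and Kcnj16 results was not tested.

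Kcnn3 had the largest rise. This small-conductance calcium-activated channel, the member of its family known for pacing dopamine neurons, had 28.8, 21.6, 5.22, 12.2 and 12.5 units at E18, against 0.651, 0.446, 2.17, 0.193 and 2.18 units at E13, and rose by 2.93 ± 0.38 (SE, adjusted p = 4.536e-06). Kcnn2 had 33.5, 18.5, 18, 21.7 and 12.5 units at E18, against the E13 values of 4.42 to 5.15 units (1.84 ± 0.29, adjusted p = 2.443e-05). E18 replicate 1 was the highest for both genes, and no E18 library of either overlapped E13. Of the same family Kcnn1 rose by 0.72 ± 0.27 (adjusted p = 0.03511), with 9.10 ± 2.18 units at E18 and 5.13 ± 1.15 units at E13 (SD, n = 5 each), a limma call that was lost without any one of 6 libraries (E13 replicates 1, 4 and 5 and E18 replicates 2, 3 and 4). Markers of dopamine neurons were lower in the same step for 2 of 6 genes and higher for 0.

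Genes of the A-type current went both ways over this step. The pore Kcnd2 had 7.22, 10.5, 14.4, 9.15 and 15.6 units at E18, against 2.44, 4.37, 1.55, 0.648 and 0.570 units at E13 (2.19 ± 0.33 SE, adjusted p = 2.541e-05), and the accessory Kcnip4 had 11.2, 13.7, 24.6, 20.7 and 19.0 units at E18, against 4.43, 6.43, 2.51, 0.521 and 1.82 units at E13 (2.34 ± 0.33, adjusted p = 1.2e-05). The pore Kcnd3 went the other way, with 2.52, 2.19, 5.22, 3.92 and 3.79 units at E18, against 5.64, 9.64, 7.20, 5.15 and 3.85 units at E13 (-0.68 ± 0.26, adjusted p = 0.03619). The Kcnd3 call was lost with median scaling, with a pseudocount of 0.1 and without any one of E13 replicates 2 and 3 and E18 replicates 1 and 2, and Kcnip1, at 26.5 ± 16.2 units at E18, was not called. Kcnip2 rose by 1.07 ± 0.41 (adjusted p = 0.03927) to 3.48 units at E18, against 1.17 units at E13, and lost its call with a pseudocount of 0.1 and without any one of E13 replicates 2 to 5 or E18 replicates 2 to 5. Kcnmb4 rose by 0.58 ± 0.22 (adjusted p = 0.03493), a call lost without any one of E13 replicates 2, 3 and 5 and E18 replicates 1 and 2.

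Kcnj10 rose by 1.84 ± 0.25 (SE, adjusted p = 3.336e-06) at the values given above, and the adjusted p stayed at or below 0.0009575 in all alternatives. The remaining falls were Kcnab1, with 1.39, 4.24, 3.38, 7.30 and 5.53 units at E18, against 3.16, 10.7, 16.5, 22.1 and 15.0 units at E13 (-1.34 ± 0.42, adjusted p = 0.01487), and Kcnj8, a pore of the metabolically gated channels of pericytes, with 0.732, 2.14, 5.87, 1.73 and 1.73 units at E18, against 7.80, 4.89, 5.68, 6.95 and 6.87 units at E13 (-1.26 ± 0.49, adjusted p = 0.03977). Kcnj8 lost its call with median scaling, with a pseudocount of 0.1 and without any one of E13 replicates 1, 3, 4 and 5 or E18 replicates 1, 2, 4 and 5. Markers of endothelial and mural cells were lower for 4 of 6 genes in the same step and higher for 1, and their part in the Kcnj8 result was not tested.

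Of 46 Kcn symbols listed at E18 or E13, 23 were listed at E18 alone (50.0%, against 11.1% of all genes) and 2 at E13 alone (4.35%, against 4.19%). The glial rectifier Kcnj16 was the highest newly listed gene at 46.7 ± 12.9 units (SD, n = 5). The fast-repolarising pore Kcnc4 followed with 14.4, 18.8, 15.4, 10.2 and 19.5 units, and the intermediate-conductance calcium-activated channel Kcnn4 with 14.2, 8.39, 8.74, 13.3 and 13.2 units. Kcnn4 had also been listed at E11, at 0.459 to 1.68 units. No fold change was computed for genes not listed at 1 of the 2 ages. Kcnh7 and Kcnd3os were the genes listed at E13 alone.

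In P70 cells against E18 cells the called genes went both ways, with 6 of 35 higher and 8 lower, where 40.8% of 12353 genes tested were called, 16.9% higher and 24.0% lower. In 7 of the 35 the ages did not overlap, against 20.9% of all genes. The median change of the 35 was 0.02 on the log2 scale, beside -0.14 over all genes; with values rescaled to a common median the all-gene median was 0.01 and the split of Kcn calls was 7 higher and 6 lower. Of the 17 neuronal-type genes tested 5 fell, 1 rose and 11 were not called, and of the 4 glial-type genes Kcnj10 rose, Kcnk2 fell and the others were not called. Neuron markers fell in 6 of 10 and rose in none, whereas 7 of 8 ependymal markers rose and none fell. Astrocyte markers rose in 5 of 10 and fell in 3. The part of these markers in the channel results was not tested. This comparison shares its E18 libraries with the previous one.

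**Figure D2:**
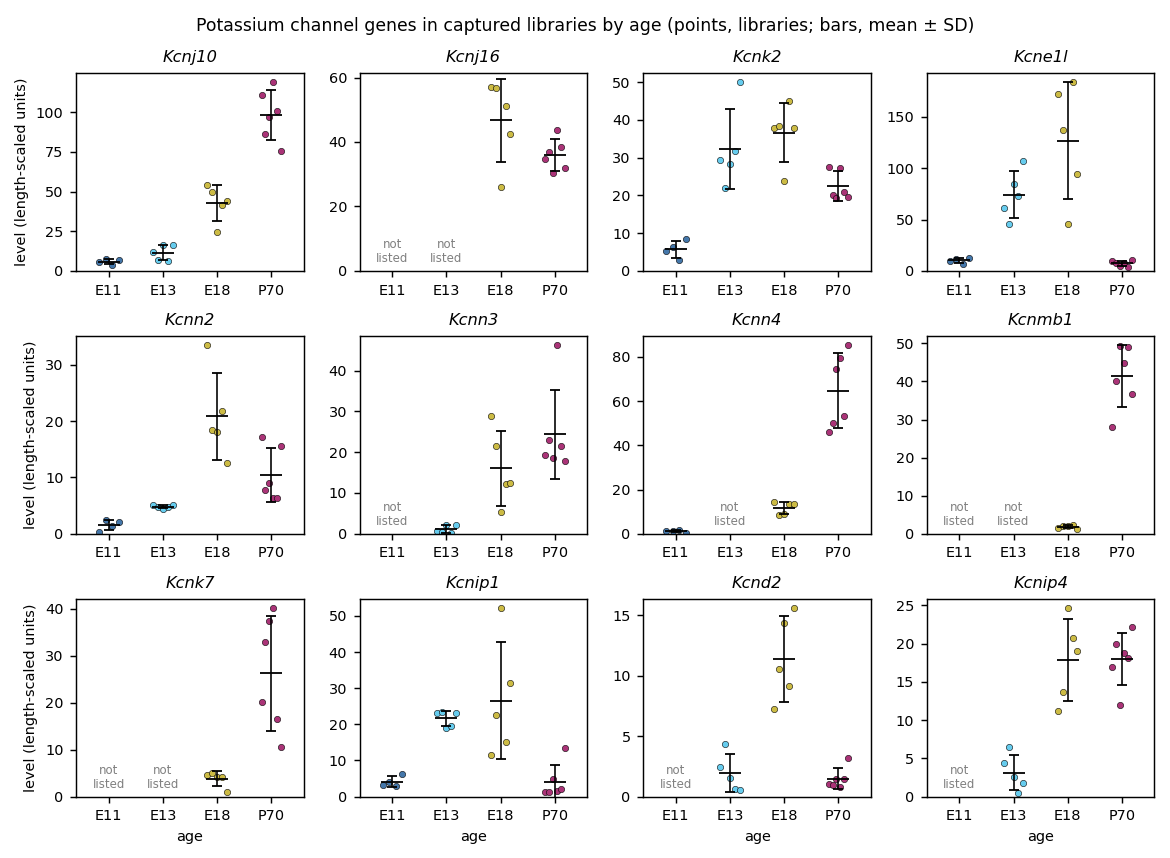
Units of 12 Kcn genes in each captured library at E11, E13, E18 and P70, with the mean and SD of each age. Kcnj10 was highest at P70 (75.7 to 119 units), Kcnmb1, Kcnk7 and Kcnn4 separated P70 from E18 without overlap, and Kcne1l was highest at E18 (45.9 to 183 units) and fell to 4.03 to 10.8 units at P70.

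The largest rise was that of Kcnmb1, the accessory subunit that raises the calcium sensitivity of the large-conductance channel and is best known from smooth muscle. Its P70 libraries had a lowest of 28.1, a median of 42.5 and a highest of 49.3 units, against 1.54, 2.04, 1.93, 2.27 and 1.25 units at E18, on 300 to 614 recovered reads at P70 and 22 to 40 at E18. The change was 3.90 ± 0.20 on the log2 scale (SE, adjusted p = 1.553e-09), and every P70 library lay far above every E18 library. Kcnmb1 lies within the span of Kcnip1 on the other strand (chr11:33963013-33973641 on the plus strand, inside chr11:33629339-33993152 on the minus strand, GRCm38), without shared exon bases, and Kcnip1 moved the opposite way over this step. Markers of endothelial and mural cells were listed for 4 of 9 genes at P70, with summed levels of 22.8 to 89.5 units at P70 and 77.2 to 130 units at E18. The pore gene of this channel, Kcnma1, was not among the 57 captured symbols.

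Kcnn4, the calcium-activated channel known from red cells, lymphocytes and microglia, had a lowest of 45.9, a median of 63.8 and a highest of 85.2 units at P70, against 14.2, 8.39, 8.74, 13.3 and 13.2 units at E18 (2.38 ± 0.23 SE, adjusted p = 2.633e-07). Kcnk7, a two-pore family member for which no current of its own is known, had 10.5, 26.5 and 40.1 units as lowest, median and highest at P70, against 4.54, 4.95, 4.13, 4.23 and 1.06 units at E18 (2.46 ± 0.36, adjusted p = 7.703e-05). Both were without overlap between ages, and both remained called in all alternatives. Microglia markers rose in 5 of 9 and fell in none, with summed levels of 345 to 533 units at P70 and 86.4 to 444 units at E18, and their part in the Kcnn4 result was not tested.

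Kcnj10 rose by 1.21 ± 0.24 (SE, adjusted p = 0.0003942) between these ages, while Kcnj16 was not called (-0.33 ± 0.20, adjusted p = 0.2123). Leaving out E18 replicate 3, the lowest of its age, gave Kcnj16 a fall that passed the test (adjusted p = 0.02014). Kcnk2 fell by 0.67 on the log2 scale (SE 0.23, adjusted p = 0.0219), with 19.2, 20.6 and 27.6 units as lowest, median and highest at P70, against 38.0, 38.3, 23.7, 44.9 and 37.9 units at E18; median scaling, or leaving out E18 replicate 4, ended that call. Of the other rises, Kcnab2, an auxiliary subunit that helps place voltage-gated channels in axons, had 5.50, 7.45 and 9.70 units as lowest, median and highest at P70, against 4.52, 3.05, 3.98, 2.34 and 2.94 units at E18 (0.99 ± 0.25, adjusted p = 0.002973). Kcna5, a voltage-gated pore, was called at 0.77 ± 0.29 (adjusted p = 0.04683), overlapped between ages and lost its call with a pseudocount of 0.1 or 5, with only these ages fitted, with library weights, without P70 replicates 4 and 6 together, and without any one of E18 replicates 2 to 5 or P70 replicates 1, 3, 4 and 6 (adjusted p up to 0.1525 over all alternatives).

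The largest fall was that of Kcne1l, the gene with the highest Kcn level at E13 and E18. It had 4.03, 7.63 and 10.8 units as lowest, median and highest at P70, against 172, 137, 45.9, 183 and 94.0 units at E18, a change of -3.84 ± 0.31 (SE, adjusted p = 5.108e-09). P70 levels overlapped those of E11 and did not overlap those of E18. Of the A-type genes, Kcnip1 fell, with 1.18, 1.90 and 13.4 units at P70, against 11.5, 22.4, 52.1, 15.2 and 31.3 units at E18 (-2.62 ± 0.41, adjusted p = 3.049e-05), and so did Kcnd2, with 0.822, 1.24 and 3.17 units at P70, against 7.22, 10.5, 14.4, 9.15 and 15.6 units at E18 (-2.33 ± 0.33, adjusted p = 1.706e-05). P70 replicate 6 was the highest P70 library for both genes and for the summed neuron markers (1056 units). E18 replicate 3, the highest of its age for Kcnip1, was likewise the highest for those markers.

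Kcnip2 (-1.12 ± 0.40, adjusted p = 0.03181) was at 0 in 2 of 6 P70 libraries, had 0, 1.19 and 3.72 units as lowest, median and highest at P70, against 1.67, 3.22, 3.98, 4.95 and 3.58 units at E18, and lost its call with median scaling, with only these ages fitted and without any one of E18 replicates 2 to 5 or P70 replicates 1, 2 and 6. Kcnj11, the pore of metabolically gated channels in neurons and beta cells, had 0.379, 1.44 and 4.26 units at P70, against 3.40, 5.20, 3.48, 3.35 and 6.64 units at E18 (-1.08 ± 0.34, adjusted p = 0.02058), and lost its call without E18 replicate 2 or 5. Kcnn2 fell by 0.97 on the log2 scale (SE 0.28, adjusted p = 0.008922) to a median of 8.43 units. Its relative Kcnn3 was not called (0.68 ± 0.37), and neither were the A-type genes Kcnip4 (0.04 ± 0.32), Kcnip3 (-0.11 ± 0.40) and Kcnd3 (-0.36 ± 0.25), nor Kcnmb4 (0.05 ± 0.21).

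Of 54 Kcn symbols listed at P70 or E18, 10 were listed at P70 alone (18.5%, against 6.57% of all genes) and 9 at E18 alone (16.7%, against 6.91%). The highest at P70 alone were the modifier Kcns1 (6.96 ± 3.89 units, SD, n = 6, at 0 in 1 library), the two-pore gene Kcnk12 (5.66 ± 5.09 units), the slow voltage-gated pore Kcnh3 (4.04 ± 2.0 units) and Kcne2 (3.33 ± 0.75 units), a single-span subunit known from choroid plexus. Of 5 choroid plexus markers, 2 could be tested in this step and both rose, while Kl and Aqp1 were not listed at P70. Their summed levels were 210 to 329 units at P70 and 29 to 78.4 units at E18. At E11, where Kcne2 was not listed, the sums were 117 to 336 units. The part of choroid plexus cells in the Kcne2 result was not tested. The highest at E18 alone were Kcnab1 (4.37 ± 2.23 units, SD, n = 5), Kcnh4 (3.05 ± 1.24 units), Kcnmb2 (2.19 ± 0.48 units) and Kcnk10 (1.98 ± 0.67 units).

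Other genes of potassium handling were followed in the captured cells. Aqp4, Slc1a2, Slc1a3, Gja1, Gjb6 and Atp1b2 are also among the astrocyte markers, so these lists are not independent. Of 24 such genes (sodium pump subunits, potassium-chloride cotransporters, glial glutamate transporters and others), 6 of 22 tested rose and 2 fell in E13 cells against E11 cells, with the glial glutamate transporter Slc1a3 at 179.8 units at E13 and 28.5 units at E11. Of all genes tested in this step 9.44% were higher and 11.5% lower. In E18 cells against E13 cells 17 of 23 rose and 1 fell, at a median change of 1.67 on the log2 scale, where 22.4% of all genes were higher and 25.0% lower. The sodium pump subunit of glia Atp1b2 averaged 359 ± 80.8 units at E18 and 13.1 ± 4.01 units at E13 (SD, n = 5 each), a change of 4.69 ± 0.20 (SE, limma adjusted p = 8.785e-14), and the water channel Aqp4, which sits beside Kcnj10 in astrocyte endfeet, averaged 22.4 ± 5.25 units at E18 and 4.18 ± 1.23 units at E13 (2.18 ± 0.23, adjusted p = 3.159e-07). In P70 cells against E18 cells 8 of 24 rose and 6 fell, with a median change of -0.05, where 16.9% of all genes were higher and 24.0% lower. Slc1a3 averaged 102 units at P70 and 518 units at E18, and Atp1b2 193 units at P70 and 359 units at E18. Aqp4 rose again, to 49.2 ± 11.1 units at P70 (1.10 ± 0.22, adjusted p = 0.0005873), the pump regulator Fxyd1 averaged 344 ± 66.9 units at P70 (n = 6) and 24.9 ± 13.4 units at E18 (3.99 ± 0.51, limma adjusted p = 2.685e-06), and its relative Fxyd7 averaged 34.7 ± 26.7 units at P70 and 227 ± 70.2 units at E18 (-2.93 ± 0.49, adjusted p = 6.969e-05). Of 21 proteins that bind or anchor channels, the tested ones gave 1 rise and no fall of 9 tested, 8 rises and no fall of 13, and no rise and 5 falls of 14 in the 3 steps from E11 to P70. The shares over all genes in these steps are those given above. The A-type partner Dpp6 took part in all 3, with mean levels of 2.97, 11.9, 33.4 and 10.8 units at E11, E13, E18 and P70.

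Of 90 Kcn symbols counted in spheres, 39 passed the filter on low counts; the 51 that did not averaged at most 4.36 CPM in either group, and 26 of them were at 0 in 5 or more of the 10 libraries. Levels between genes can be set side by side only per length. On that scale (CPM per kilobase of exon) Kcnip3 was highest, with 189.9 ± 14.4 in MB spheres and 153 ± 9.39 in FB spheres (SD, n = 5 each). Kcnj16 (41.0 ± 0.96) and Kcnj10 (26.4 ± 2.72) followed in MB spheres, and Kcnj10 (24.3 ± 3.01) and Kcnj16 (10.9 ± 2.45) in FB spheres. Astrocyte markers were high in both kinds of sphere, with summed levels of 4795 to 5078 CPM in MB and 4229 to 4678 CPM in FB, and ependymal markers low, with 29.2 to 40.5 CPM in MB and 17.7 to 22.7 CPM in FB. Tmem212, Ccdc153, Pifo and Ak7 stayed under 1 CPM on average in both groups.

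In MB spheres against FB spheres 13 of the 39 Kcn genes were higher and 6 lower (edgeR quasi-likelihood test, adjusted p below 0.05), where 29.6% of 12886 genes tested were called, 15.3% higher and 14.3% lower. The median log2 change of the 39 was 0.29, beside -0.02 over all genes. In 16 of the 39 the groups did not overlap, where 21.1% of all genes did not. The neuronal type gave 8 of 22 higher and 2 lower. Of the glial type Kcnj16 was higher and Kcnk2 lower, and Kcnj10 and Kcnk1 were not called. Neuron markers were higher for 2 of 7 and lower for 3, with summed levels of 662 to 729 CPM in MB and 511 to 591 CPM in FB.

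The glial pair split in the spheres. Kcnj16 had 160, 157, 161, 168 and 161 CPM in MB spheres, against 35.6, 31.3, 42.7, 53.5 and 51.4 CPM in FB spheres, a log2 fold change of 1.88 ± 0.12 (SE, adjusted p = 3.919e-10). Kcnj10 had 164, 146, 144, 134 and 125 CPM in MB spheres, against 158, 128, 128, 128 and 114 CPM in FB spheres (0.10 ± 0.09, adjusted p = 0.4529). The 5 MB values of Kcnj16 were all above FB, while the ranges of Kcnj10 overlapped, with 1 MB library above every FB library and 1 FB library below every MB library. The log2 ratio of Kcnj10 to Kcnj16 (CPM + 1) was -0.18 ± 0.16 in MB spheres and 1.61 ± 0.44 in FB spheres (SD, n = 5 each), a difference of -1.79 with a two-sided exact permutation p of 0.007937, the smallest this design can give. CPM are not scaled by length, so only the difference between MB and FB can be read. The level of this ratio cannot be set beside that of the captured ages.

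**Figure D3:**
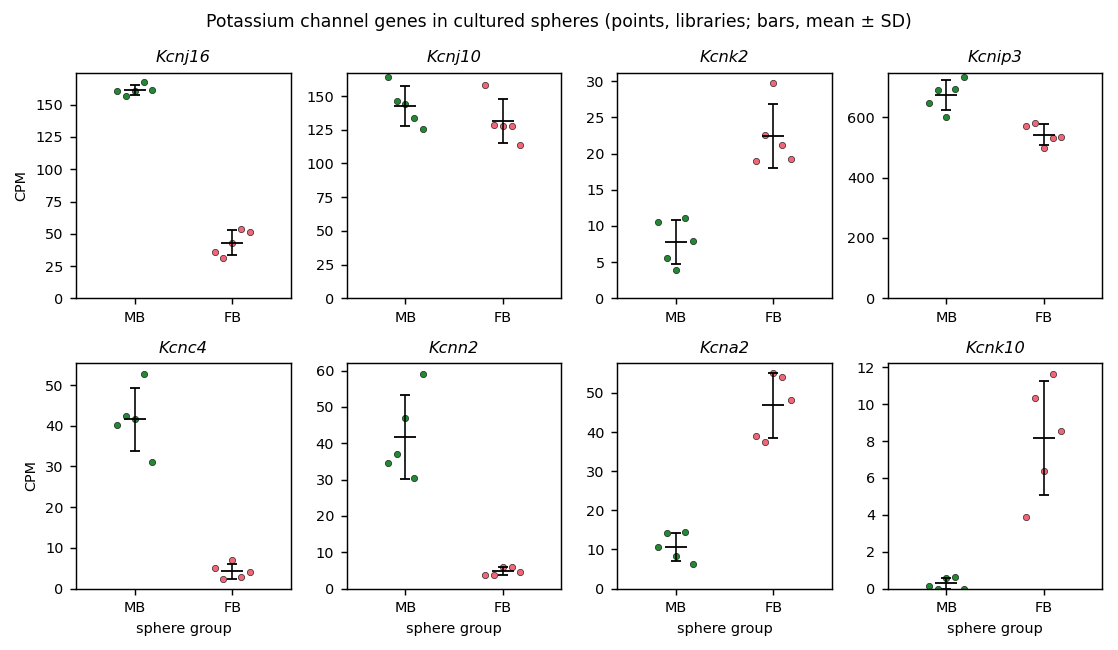
CPM of 8 Kcn genes in each MB and FB sphere library, with the mean and SD. Kcnj16, Kcnc4 and Kcnn2 were higher in every MB library than in any FB library and Kcna2, Kcnk2 and Kcnk10 lower, while the Kcnj10 values of MB (125 to 164 CPM) and FB (114 to 158 CPM) overlapped.

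The largest rises in MB spheres were those of Kcnc4, Kcnn2, Kcng1 and Kcnc2. The pore Kcnc4, which serves fast repolarisation, had 40.2, 42.3, 41.6, 52.8 and 31.2 CPM in MB spheres, against 4.94, 2.35, 7.0, 2.73 and 4.09 CPM in FB spheres (3.26 ± 0.25, adjusted p = 6.882e-09). Kcnn2 had 34.5, 37.0, 47.0, 30.5 and 59.2 CPM in MB spheres, against 3.74, 3.66, 5.92, 5.81 and 4.45 CPM in FB spheres (3.10 ± 0.22, adjusted p = 2.3e-09). No library of either gene crossed between groups. The silent modifier Kcng1, which alters delayed rectifiers, had 11.6, 14.8, 12.6, 15.6 and 17.0 CPM in MB spheres, against 0.749, 0, 1.51, 2.73 and 3.73 CPM in FB spheres (2.98 ± 0.50, adjusted p = 0.0001196). Kcnc2, a relative of Kcnc4, had 3.18, 2.24, 2.49, 3.95 and 3.40 CPM in MB spheres, against 0, 0, 1.40, 0.237 and 0.361 CPM in FB spheres (2.78 ± 0.72, adjusted p = 0.006043), on at most 26 counts per library.

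Of the smaller rises, the leak channel Kcnk3 had 3.47, 2.66, 2.97, 3.16 and 2.23 CPM in MB spheres, against 0.899, 0.392, 0, 1.42 and 0.843 CPM in FB spheres (1.99 ± 0.62, adjusted p = 0.0209), and lost its call without FB replicate 2. The A-type pore Kcnd1 had 2.02, 2.80, 1.78, 4.27 and 7.99 CPM in MB spheres, against 2.10, 0, 0.861, 1.78 and 0.120 CPM in FB spheres (1.93 ± 0.72, adjusted p = 0.04822), overlapped between groups and lost its call without any one of MB replicates 1, 2, 4 and 5 or FB replicates 2, 3 and 5. Of other A-type genes, Kcnip1 was higher by 1.59 ± 0.35, Kcnd2 by 1.05 ± 0.20, Kcnd3 by 0.67 ± 0.12 and Kcnip3 by 0.29 ± 0.06 on the log2 scale (all SE), while Kcnip2 and Kcnip4 were not tested and the partners Dpp6 (-0.21 ± 0.20) and Dpp10 (-0.08 ± 0.47) were not called. Kcnip3 had 648, 691, 600, 694 and 734 CPM in MB spheres, against 570, 580, 497, 533 and 534 CPM in FB spheres. The silent modifier Kcnv1 (1.17 ± 0.25) and Kcnma1, the pore of the large-conductance channel (1.10 ± 0.25), were also higher in MB, Kcnma1 averaging 13.8 ± 3.52 CPM in MB spheres and 6.33 ± 0.97 CPM in FB spheres (SD, n = 5 each).

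The largest fall was that of Kcnk10, a stretch-sensitive two-pore channel related to Kcnk2, with 0.144, 0, 0.594, 0.632 and 0 CPM in MB spheres, against 3.89, 10.3, 6.35, 11.6 and 8.55 CPM in FB spheres (-4.84 ± 0.63, adjusted p = 7.355e-06); MB libraries held at most 5 counts. Kcnk2 fell with it, with 10.5, 5.60, 3.92, 11.1 and 7.86 CPM in MB spheres, against 19.0, 22.6, 29.8, 21.2 and 19.3 CPM in FB spheres (-1.55 ± 0.26, adjusted p = 0.0001253). The groups did not overlap for either gene. The axonal pore Kcna2 had 10.7, 14.1, 8.19, 14.4 and 6.29 CPM in MB spheres, against 39.1, 37.4, 55.1, 54.1 and 48.3 CPM in FB spheres (-2.16 ± 0.21, adjusted p = 1.719e-07), and the fast pore Kcnc1 averaged 44.1 ± 11.2 CPM in MB spheres and 72.9 ± 8.95 CPM in FB spheres (SD, n = 5 each), with an edgeR adjusted p of 0.0005223. Kcnn4 had 4.19, 3.36, 3.09, 4.90 and 2.62 CPM in MB spheres, against 13.2, 6.02, 4.41, 8.54 and 9.15 CPM in FB spheres (-1.21 ± 0.35, adjusted p = 0.01276), and lost its call without FB replicate 1. Kcne1l had 7.66, 6.86, 5.34, 9.17 and 3.93 CPM in MB spheres, against 15.4, 14.5, 12.1, 8.18 and 11.9 CPM in FB spheres (-0.94 ± 0.27, adjusted p = 0.01344). Both overlapped between groups by 1 library or more.

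**Figure D4:**
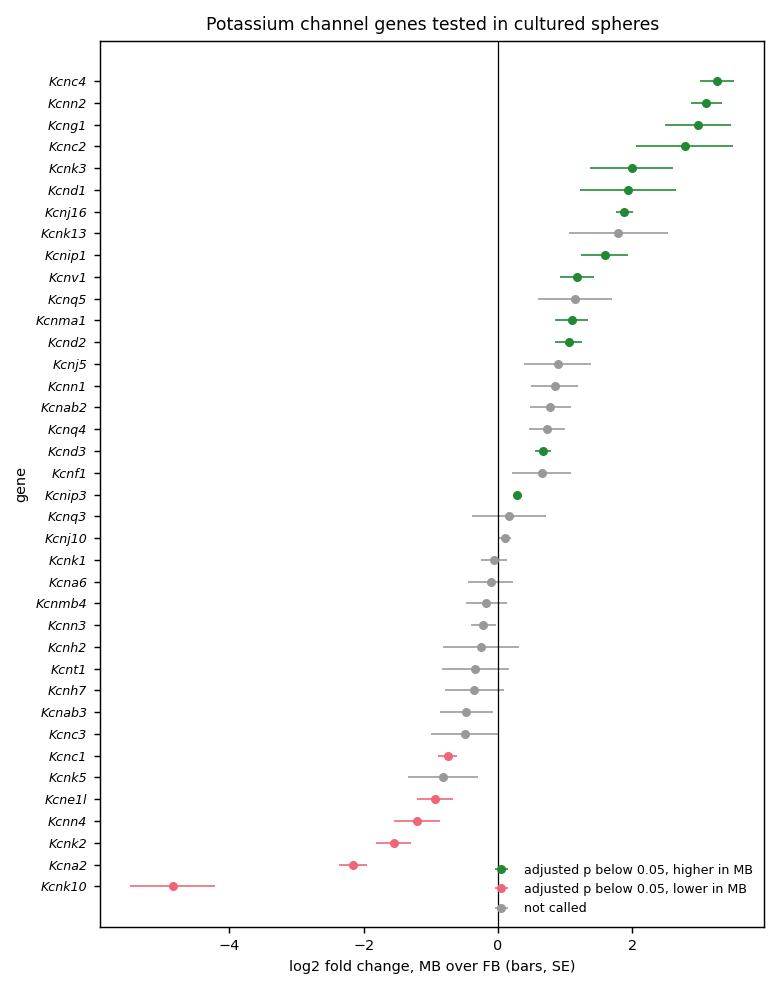
Log2 fold change, MB over FB spheres, with its SE for 38 of the 39 Kcn genes tested, ordered by size; colour shows the call. Kcnc4 (3.26) and Kcnn2 (3.10) lead the 13 genes higher in MB, and Kcnk10 (-4.84) and Kcna2 (-2.16) lead the 6 lower in MB.

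Of the genes of potassium handling, 8 of 20 tested were higher and 4 lower in MB spheres, where 15.3% of all genes tested were higher and 14.3% lower. Atp1b2 averaged 1061 ± 47.0 CPM in MB spheres and 588 ± 49.5 CPM in FB spheres (0.83 ± 0.06 SE, edgeR adjusted p = 7.37e-10, n = 5 each), and Aqp4 averaged 182 ± 28.7 CPM in MB spheres and 65.1 ± 3.68 CPM in FB spheres (1.46 ± 0.10, edgeR adjusted p = 7.671e-10). Both were thus higher beside Kcnj16, at a Kcnj10 level that was not called different. Of 11 channel-binding proteins tested 3 were higher and 2 lower, led by Lgi1, a secreted partner of axonal channels, at 27.2 ± 5.81 CPM in MB spheres and 2.45 ± 1.27 CPM in FB spheres (3.45 ± 0.30, edgeR adjusted p = 2.551e-08). Oligodendrocyte lineage markers were lower in MB for 5 of 10 and higher for 2, with summed levels of 3001 to 3680 CPM in MB and 3689 to 4198 CPM in FB, and their part in the channel differences was not tested.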

How the data were processed

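Members and gene lists were chosen with earlier results of these data known. Per the submitters' processing notes, the builds GRCm39 and mm10 and the tools Salmon 1.6.0, STAR 2.3 and DESeq2 1.34.0 were used, with no role stated. The captured table was deposited with values of another unit that is not named; whole reads per gene and library, to within 0.01 read, were recovered for 10918 genes, 44 of them Kcn, so they act as reads scaled by length and depth. Of its 15139 lines, 142 with 11 repeated symbols were left out. The sphere table was deposited by the authors as raw counts.

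In R 4.3.3, limma 3.58.1 compared captured ages as log2(units + 1), a pseudocount of 1, with all 20 libraries in 1 fit and genes listed at both ages; no count test was run on the recovered reads, which cover part of the genes. Fold changes on this scale understate those of low genes. Spheres were compared with edgeR 4.0.16 (TMM, filterByExpr, quasi-likelihood test), with DESeq2 1.42.0 as an alternative; the SE is the log2 change over the square root of F. Calls use Benjamini-Hochberg adjusted p below 0.05 over all genes tested. The fits were tested on simulated data. Single ratios were tested by exact permutation. Named genes were Kcnj10, Kcnj16, the 6 largest rises and 6 largest falls per comparison, the 3 highest per group and up to 4 listed at 1 age. No molecular identifiers were used, so counting error alone understates the error of low genes. Some members are counted but not reported by name here. Sequences are from RefSeq (GRCm38.p6) and gene positions from GENCODE (GRCm38).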

Additional observations from a re-analysis of the deposited data

Results flagged for a closer look

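In 12 of 141 groups of 4 to 6 libraries (8.51%), 1 library stood apart from the others of its group by Dixon's 95% criterion, which chance alone meets in about 1 group of 20. P70 replicate 4, the shallowest library, was the high value for Kcnn3 (46.2 units, others 17.9 to 22.9), Kcnj8 (6.83 units, others 0 to 2.28) and Kcnk3 (7.01 units, others 1.87 to 3.78). P70 replicate 6, the highest P70 library for summed neuron markers, was the high value for Kcnip1 (13.4 units, others 1.18 to 4.98) and Kcnd2 (3.17 units, others 0.822 to 1.48). At E18, replicate 1 was high for Kcna5 at 7.29 units, replicate 3 high for Kcnj8 at 5.87 units and replicate 5 low for Kcnk7 at 1.06 units. At E13, replicate 1 was high for Kcnip2 at 2.59 units and replicate 3 high for Kcnk10 at 4.68 units. In spheres, MB replicate 2 was high for Kcnd3 at 81.3 CPM and FB replicate 3 high for Kcnc2 at 1.40 CPM.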

How the results depend on the processing

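No Kcn change that passed the test reversed sign under the alternatives that were run. Among the named changes that were not called, these crossed 0 on the log2 scale: Kcnab1 in E13 cells against E11 cells (-0.42 to 0.20), Kcnip1 in E18 cells against E13 cells (-0.19 to 0.34), Kcnk1 in MB against FB spheres (-0.18 to 0.04), and Kcnip4 (-0.11 to 0.20), Kcnip3 (-0.41 to 0.17) and Kcnmb4 (-0.08 to 0.22) in P70 cells against E18 cells. Leaving out 1 library at a time gave 7 to 9 Kcn calls in E13 cells against E11 cells (9 with all libraries), 6 to 10 in E18 cells against E13 cells (11), 11 to 15 in P70 cells against E18 cells (14) and 19 to 21 in MB against FB spheres (19). In E18 cells against E13 cells the count was 7 without E13 replicate 3 and 6 without E18 replicate 2. A floor of 10 CPM left 15 Kcn genes to test in the spheres and 12 calls, since fewer genes were tested. Deviations of same-numbered libraries from their group means correlated weakly, at -0.15 to 0.27 in E18 against E13, the widest range. Such a check cannot show whether the numbers pair libraries. With the replicate block the sphere count was 18. With the block in a fit of only the ages compared, the captured counts were 7, 12 and 13. Without the block such a fit gave 8, 15 and 12. Calls that ended with the block included Kcnj10 in E13 cells against E11 cells, Kcnd3 in E18 cells against E13 cells, and Kcnd1 in spheres. Those of Kcnip2 and Kcna5 in P70 cells against E18 cells ended in a fit of only these ages, with or without the block. Leaving out P70 replicates 4 and 6 together, an alternative chosen after seeing the data, gave 16 calls in P70 cells against E18 cells. Over all genes, E13 cells against E11 cells gave 2421 calls, 3811 with only these ages fitted and 4873 with library weights. Of single-gene alternatives 813 kept their side of the threshold, 90 lost it and 1 gained it. The cause was not tested. Depth was lowest at P70, and a gene not listed at an age has no value there, so its difference could not be tested.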
